A study of Sus scrofa with 6 samples.

Results

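The proteasome genes described here are the 34 genes, of 10915 with values in the deposited table, whose symbol begins with PSM, a letter from A to G and a digit. They were compared between primary cultures of pig (Sus scrofa) endometrial epithelium, the lining of the uterus, treated with seminal exosomes and cultures that were not. Cells came from uteri of a slaughterhouse and were used at passage 3. The 3 exosome libraries came from cells given 10 µg of exosomes per well for 48 h; exosomes are small membrane vesicles, here precipitated with a commercial reagent from the sperm-rich portion of boar seminal fluid. The 3 control libraries came from cells without exosomes, and no label says whether they received another additive, whether replicates derive from different uteri or different wells, or which boar's exosomes a library received. The p-values therefore cover only the spread among these 6 libraries, and that spread may be technical.

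The proteasome is the main protease of the cytosol and nucleus and degrades proteins that carry ubiquitin chains. Its 20S core is a barrel of alpha subunits (PSMA) around beta subunits (PSMB), some of which hold the cutting sites. The 19S cap recognises and unfolds substrates with ATPases (PSMC) and non-ATPase subunits (PSMD), and the PSME activators open the barrel without ubiquitin. Interferons replace the cutting subunits with PSMB8, PSMB9 and PSMB10, which form the immunoproteasome and favour peptides for MHC class I, and the PSMG proteins are chaperones that assemble the core.

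By class, the genes were 12 of the 20S core, 15 of the 19S cap, 3 activators, 3 assembly chaperones and PSMC3IP. PSMC3IP matches the symbol rule but is a partner of the recombinase machinery of meiosis, so it was counted but placed in no class. PSMB9 stood under a pair of identifiers, ENSSSCG00000001463 and ENSSSCG00000001468, whose reads could have been split between them. The identifiers of 20 of the 34 genes carried the same symbol in the reference gene table, and the other 14 were absent from it, so those genes rest on the symbol in the deposited table. A further 5 genes had a PSM symbol only through the reference table and are given after the members. Another 12 symbols of the RefSeq family, among them PSMB5, PSMB10, PSMD7 and the inhibitor PSMF1, were matched to no gene and are not analysed here.

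Values are FPKM (fragments counted per length of transcript and size of library), and changes are exosome minus control differences of log2(FPKM + 1), tested with limma over the 10846 genes whose mean reached 1 FPKM, which all 34 proteasome genes did. Summed over all genes, the control libraries held 721273 to 732922 FPKM and the exosome libraries 690258 to 711250. The epithelial label was checked on 9 marker symbols, of which 7 were listed, with KRT8, KRT18 and KRT19 at 1197 FPKM or more in every library. The marker lists include alternative symbols of the same gene, so an unlisted symbol is not always an unlisted gene. The summed level of the 7 ran from 9203 to 9532 FPKM among controls and from 8133 to 8941 in the exosome libraries. Of the 7, 4 were lower at an unadjusted p under 0.05 in limma, against 7.5% of all genes tested. Of 12 leukocyte marker symbols CD14, CD68, LAPTM5 and LYZ were listed, CD68 under a pair of identifiers. These 5 entries had sums of 15.1 to 17.0 FPKM among controls and 13.5 to 15.6 in the exosome libraries. The defining marker PTPRC was not among them. Of 10 stromal marker symbols 5 were listed, with CD90 the highest. Their sums were 2788 to 3042 FPKM among controls and 2274 to 2494 in the exosome libraries, most of it CD90. COL1A1 varied widely and overlapped between the groups, at 2.48, 30.0 and 14.7 FPKM in the control and 20.4, 6.27 and 0.887 FPKM after exosomes. Of 5 endothelial markers only KDR was listed, at up to 1.96 FPKM. At an unadjusted p under 0.05 in limma, 1 of the 5 stromal entries, 1 of the 4 leukocyte entries tested and KDR were also lower. No entry of any list was higher at that threshold. The part of these markers in the proteasome values was not tested. Fewer cells of a type and less RNA per cell cannot be told apart in such bulk samples.

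Proteasome transcripts were abundant and nearly level between the groups. The median log2 change of the 34 genes was 0.0094, beside -0.0023 over all genes tested, with 21 genes above and 13 below 0. This median turned below 0 when exosome replicate 1 (-0.020), control replicate 3 (-0.017) or replicate 3 of both groups (-0.021) was left out. None passed an adjusted p of 0.05, as in the background, where 0% of all genes tested passed. At an unadjusted p under 0.05 there were again 0 of 34, against 12.6% of all genes tested and 15.3% of the 4284 genes with a mean of 20 to 400 FPKM, a range chosen after the values were seen. The smallest adjusted p of any member in limma was 0.468, for PSMC3.

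A p that misses the threshold does not show equal levels, so the 95% intervals of the changes are given with them. For 27 of the 34 genes the interval lay within a 1.2-fold change in either direction, a bound chosen after the values were seen. This held for 46.3% of all genes tested and for 64.8% of those with a mean of 20 to 400 FPKM. The exceptions were PSMB8, both PSMB9 genes, PSMC3IP, PSMG1, PSMG4 and PSME2. The widest interval, for PSMB9 (ENSSSCG00000001468), ran from -0.43 to 0.45 on the log2 scale.

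**Figure D1:**
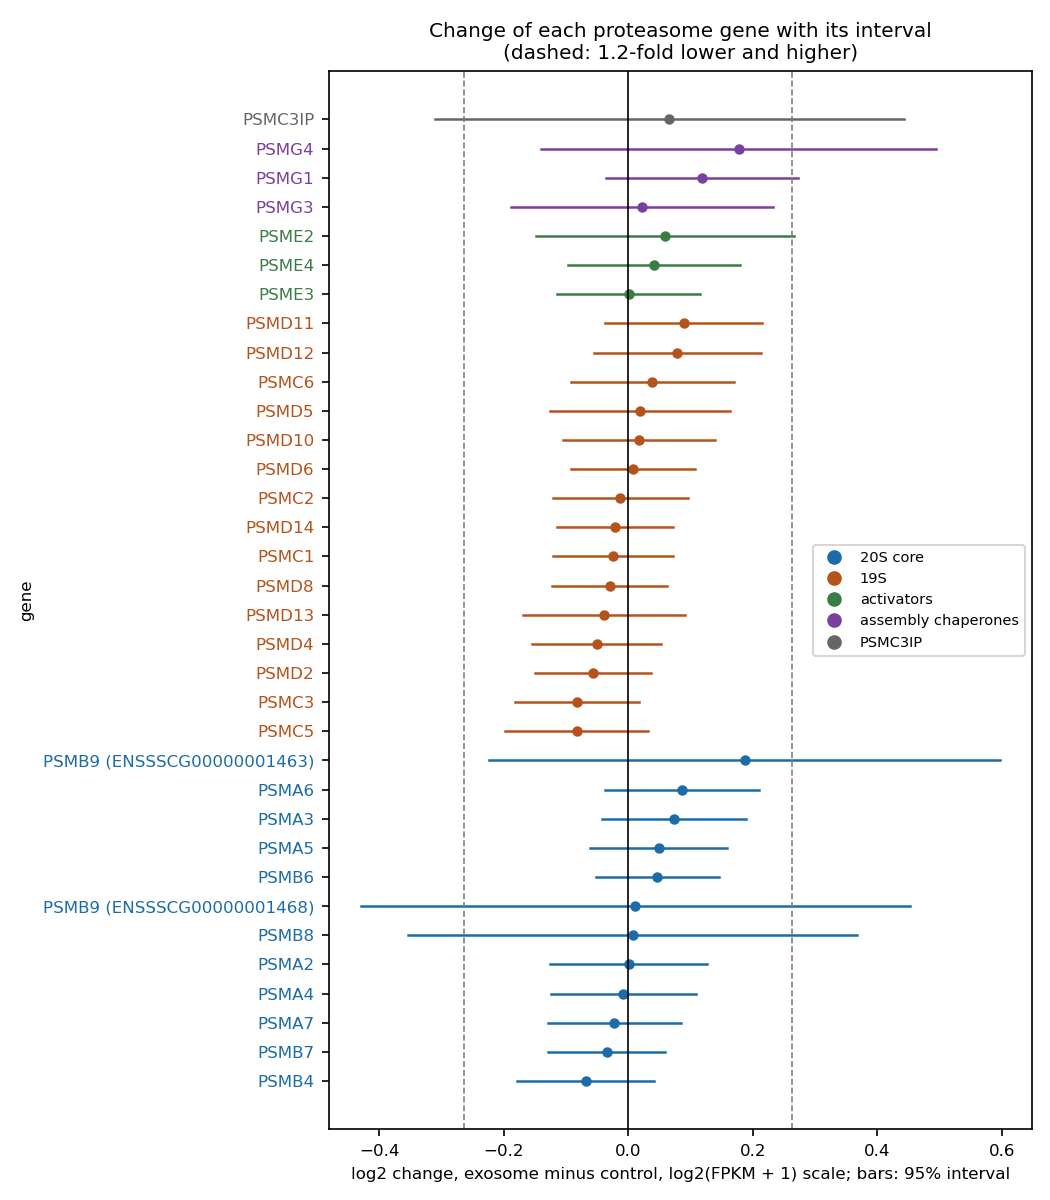
Log2 change (x axis, exosome minus control on the log2(FPKM + 1) scale) of each of the 34 genes, with bars for the 95% interval from limma and dashed lines at 1.2-fold. All 34 intervals include 0, and 27 stay between the dashed lines; the 2 PSMB9 genes carry their identifiers.

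The genes spanned a wide range of levels. PSMB6, a constitutive cutting subunit of the core, was the highest at a mean of 363 FPKM over the 6 libraries, and PSMB9 (ENSSSCG00000001463) the lowest at 2.39 FPKM. Of the 34 genes, 31 lay above the median level of all genes tested (15.0 FPKM) and 17 in the top 10% by level. Core subunits had a median level of 183 FPKM and 19S subunits 117 FPKM. In the order of levels PSMD8 (314 FPKM) and PSMB4 (295 FPKM) followed PSMB6, while PSMD2, PSMB7 and PSMA6 lay at 243, 242 and 242 FPKM, closer to each other than their spread between libraries. Summed over the 34 genes the level was 4184 ± 102 FPKM in control libraries and 4211 ± 95.8 FPKM after exosomes (SD, n = 3), or 0.574% ± 0.0098 and 0.599% ± 0.0213 of all FPKM. The shares overlapped, with control replicate 1 at 0.584% and exosome replicate 2 at 0.580%. Their divisor, the sum over all genes, was itself lower after exosomes, at 703263 ± 11360 FPKM against 728438 ± 6270 FPKM.

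**Figure D2:**
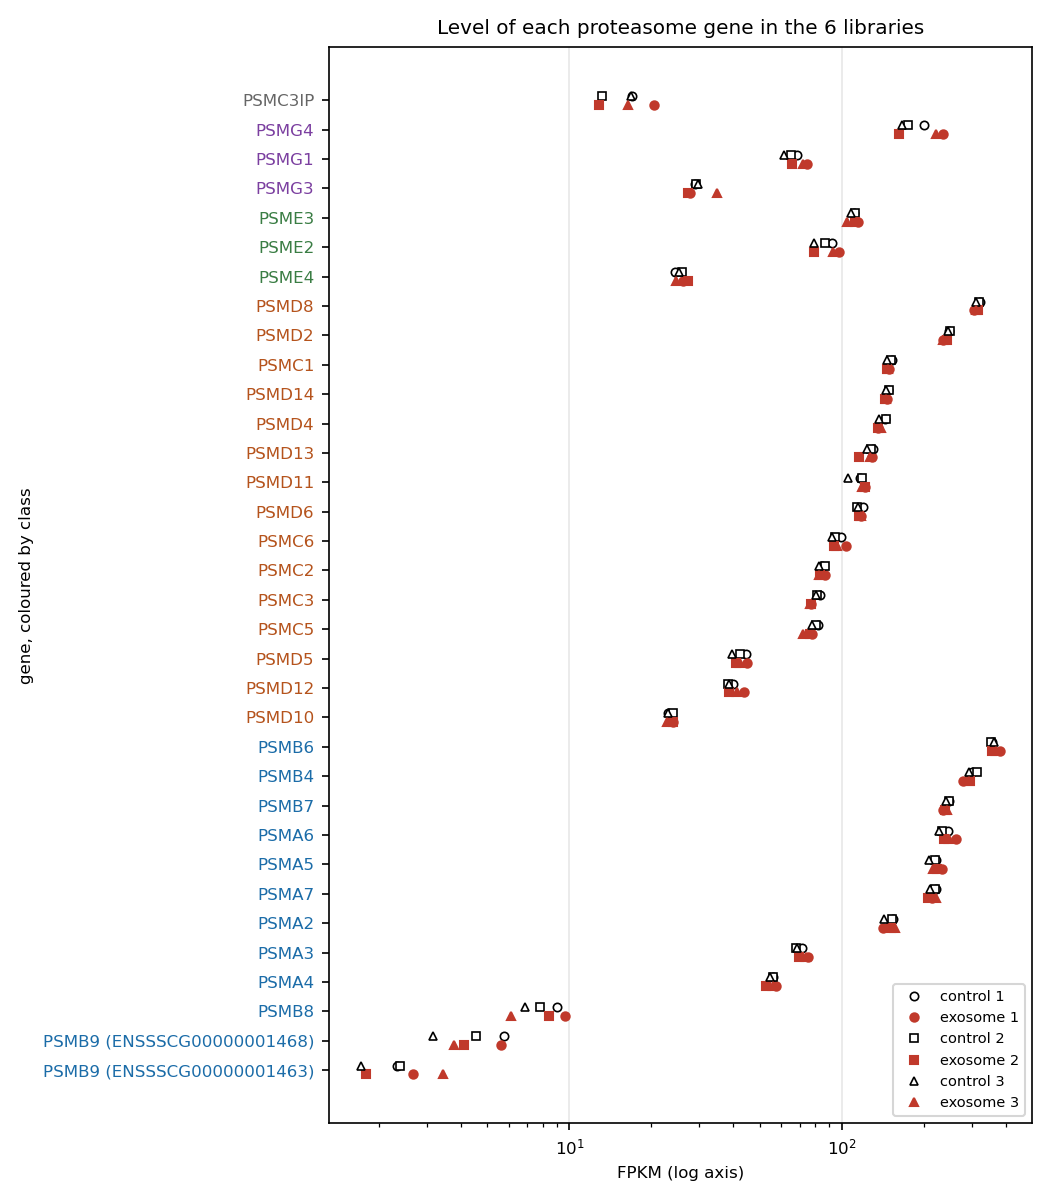
FPKM of the 34 genes in each library (x axis, log scale; open symbols control, filled symbols exosome, marker shape the replicate number, gene names coloured by class). For most genes the symbols of both groups overlie each other, from PSMB6 near 363 FPKM down to the PSMB9 gene at 2.39 FPKM.

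The alpha subunits form the outer rings and the gate of the core. Among the 6 listed, PSMA6 was at 245, 233 and 227 FPKM in control replicates 1 to 3 and at 262, 238 and 248 FPKM after exosomes. The groups overlapped, since exosome replicate 2 lay under control replicate 1, and the log2 change was 0.086 with an SE of 0.053 (95% interval -0.038 to 0.21, adjusted p = 0.540 in limma). PSMA3 was at 71.3, 68.1 and 68.7 FPKM in the control and at 75.2, 69.8 and 74.1 FPKM after exosomes, a log2 change of 0.073 with an interval from -0.042 to 0.19. PSMA5 was at 222, 219 and 209 FPKM and at 233, 224 and 216 FPKM. In all 3 genes exosome replicate 1 held the highest value of the 6 libraries.

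The other alpha subunits had changes closer to 0. PSMA7 was at 221, 220.5 and 211 FPKM in the control and at 214, 207 and 222 FPKM after exosomes. PSMA2 was at 154, 153 and 143 FPKM and at 142, 152 and 156 FPKM. PSMA4, the lowest of the alpha subunits, was at 56.1, 56.1 and 54.6 FPKM and at 57.2, 52.7 and 56.0 FPKM. The median log2 change of the 6 alpha subunits was 0.025, with values from -0.023 to 0.086.

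Of the constitutive beta subunits, PSMB6 carries the caspase-like site, PSMB7 the trypsin-like site, and PSMB4 is a structural subunit without a cutting site. PSMB6 was at 356, 354 and 361 FPKM in the control and at 381, 356 and 369.6 FPKM after exosomes (log2 change 0.047, interval -0.052 to 0.15). PSMB7 was at 247, 248 and 241 FPKM and at 235, 240.1 and 244 FPKM (log2 change -0.035, interval -0.13 to 0.059). PSMB4 was at 302, 314 and 292 FPKM and at 277, 295 and 293 FPKM (log2 change -0.068, interval -0.18 to 0.042). The groups overlapped in each of the 3, and each interval excluded a change of 1.2-fold.

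PSMB8 and PSMB9, the inducible cutting subunits, were the lowest of the core genes in every library. PSMB8 was at 9.03, 7.82 and 6.88 FPKM in the control and at 9.62, 8.42 and 6.08 FPKM after exosomes. The exosome libraries held both the highest and the lowest of the 6 values, and the log2 change was 0.0072 with an interval from -0.35 to 0.37. PSMB9 (ENSSSCG00000001468) was at 5.76, 4.56 and 3.16 FPKM and at 5.59, 4.09 and 3.77 FPKM, a log2 change of 0.011. PSMB9 (ENSSSCG00000001463) was at 2.33, 2.40 and 1.72 FPKM and at 2.66, 1.78 and 3.45 FPKM, a log2 change of 0.19 (adjusted p = 0.691 in limma). Both PSMB9 genes together amounted to 1.86% ± 0.469 of the FPKM of PSMB6, the subunit that PSMB9 replaces, in control libraries and 1.92% ± 0.258 after exosomes (SD, n = 3). The intervals of PSMB8 and PSMB9 (ENSSSCG00000001468) reach beyond 1.2-fold on both sides. A change of 1.2-fold was thus not excluded in either direction for them. These intervals come from the fit without the replicate number. With that number as a block the SE was 0.085 for PSMB8 and 0.098 for this PSMB9 gene, against 0.16 and 0.19 without it. In RefSeq (Sscrofa11.1) PSMB8 lies on chromosome 7 from 25058456 to 25061666 and PSMB9 from 25072133 to 25077508, 10466 bases apart within the swine MHC.

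The 19S cap had a median log2 change of -0.021 over its 15 genes, 6 above and 9 below 0, with values from -0.083 to 0.089. This median was 0.0083 with quantile normalization and 0.0019 without replicate 2 in either group. All 15 intervals lay within 1.2-fold. The ATPase ring was represented by PSMC1, PSMC2, PSMC3, PSMC5 and PSMC6, of which 4 were lower in the exosome libraries and none passed. PSMC3 was at 83.5, 81.0 and 80.1 FPKM in the control and at 77.2, 77.2 and 76.4 FPKM after exosomes, so that every exosome value lay under every control value. Its log2 change was -0.082 with an SE of 0.043 (interval -0.18 to 0.017, adjusted p = 0.468 in limma). PSMC5 was at 82.0, 80.2 and 78.0 FPKM and at 77.9, 76.6 and 72.1 FPKM, again without overlap, with a log2 change of -0.083 and an interval from -0.20 to 0.032.

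PSMC1 and PSMC2 overlapped between the groups and differed by less than their SE. PSMC1 was at 152, 151 and 146 FPKM in the control and at 149, 146 and 147 FPKM after exosomes. PSMC2 was at 84.8, 86.8 and 82.7 FPKM and at 87.0, 82.9 and 82.2 FPKM. PSMC6 had a change above 0, at 99.5, 94.3 and 91.9 FPKM against 103.9, 93.9 and 95.8 FPKM (log2 change 0.039, interval -0.092 to 0.17).

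Among non-ATPase subunits, PSMD2, a large scaffold that receives ubiquitin shuttle factors, was at 247, 250.4 and 246 FPKM in the control and at 235, 244 and 235 FPKM after exosomes. Its groups did not overlap, and the log2 change was -0.057 (interval -0.15 to 0.036). PSMD11, a lid subunit, was at 117, 118 and 106 FPKM and at 122, 122 and 119 FPKM, the 1 gene of the 34 in which every exosome value lay above every control value (log2 change 0.089, interval -0.038 to 0.22, adjusted p = 0.537 in limma). Counted over all 34 genes, 1 was higher and 3 lower without overlap, against 8.29% and 10.4% of all genes tested. These counts are near the background or under it.

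PSMD4, a ubiquitin receptor, was at 144, 146 and 137 FPKM in the control and at 136, 136 and 139.9 FPKM after exosomes (log2 change -0.051). PSMD14, the deubiquitinase of the lid, was at 148, 149 and 145 FPKM and at 147, 144 and 145 FPKM (log2 change -0.021, interval -0.11 to 0.072). PSMD8, the most abundant 19S transcript, was at 322, 318 and 311 FPKM and at 307, 315 and 310.04 FPKM. Groups overlapped in all 3 of these genes.

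The lid subunits PSMD12, PSMD13 and PSMD6 had log2 changes of 0.079, -0.039 and 0.0076. PSMD12 was at 39.7, 38.3 and 38.7 FPKM in the control and at 43.7, 38.7 and 41.2 FPKM after exosomes. PSMD13 was at 129.9, 128 and 123 FPKM and at 129, 115 and 127 FPKM, with exosome replicate 2 the lowest of the 6 libraries. PSMD6 was at 119.7, 114 and 115 FPKM and at 117, 116 and 118 FPKM. None of the 3 separated the groups.

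PSMD5 and PSMD10 (gankyrin) are chaperones of 19S base assembly and are not part of the finished cap. PSMD5 (ENSSSCG00000030054) was at 44.4, 42.2 and 39.6 FPKM in the control and at 44.9, 40.8 and 42.2 FPKM after exosomes (log2 change 0.019). A second PSMD5 entry is given below with the genes named only by the reference table. PSMD10, the lowest of the 19S class, was at 23.0, 24.0 and 23.0 FPKM and at 23.9, 24.1 and 22.9 FPKM (log2 change 0.017). Neither interval reached 1.2-fold.

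The activators had a median log2 change of 0.041 over 3 genes. PSME2, the interferon-induced beta subunit of the cytosolic activator ring, was at 92.0, 86.8 and 79.3 FPKM in the control and at 97.7, 78.8 and 93.0 FPKM after exosomes (log2 change 0.058, interval -0.15 to 0.27). PSME3, the nuclear activator, was at 110.6, 112 and 108 FPKM and at 115, 112 and 105 FPKM (log2 change 0.00043, interval -0.11 to 0.12). PSME4, a large nuclear activator linked to histone turnover, was at 24.3, 25.9995 and 25.2 FPKM and at 26.1, 27.3 and 24.5 FPKM (log2 change 0.041). Exosome values lay on both sides of the control values for PSME2 and PSME3, and the groups overlapped for PSME4.

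Core assembly chaperones held some of the largest changes of the 34 genes, none of which passed. PSMG4 was at 199.9, 175 and 167 FPKM in the control and at 235, 162 and 222 FPKM after exosomes. Exosome replicates 1 and 3 lay above all controls and exosome replicate 2 below them, with a log2 change of 0.18, an SE of 0.14 and an interval from -0.14 to 0.49 (adjusted p = 0.617 in limma). PSMG1 was at 68.7, 65.0 and 61.5 FPKM and at 74.8, 65.4 and 72.0 FPKM (log2 change 0.12, SE 0.067, interval -0.036 to 0.27, adjusted p = 0.508). PSMG3 was at 29.0, 29.2 and 29.7 FPKM and at 27.8, 27.3 and 34.8 FPKM (log2 change 0.022), with exosome replicate 3 apart from the other libraries. PSMC3IP was at 16.9, 13.1 and 16.8 FPKM and at 20.5, 12.9 and 16.4 FPKM (log2 change 0.066, interval -0.31 to 0.44).

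**Figure D3:**
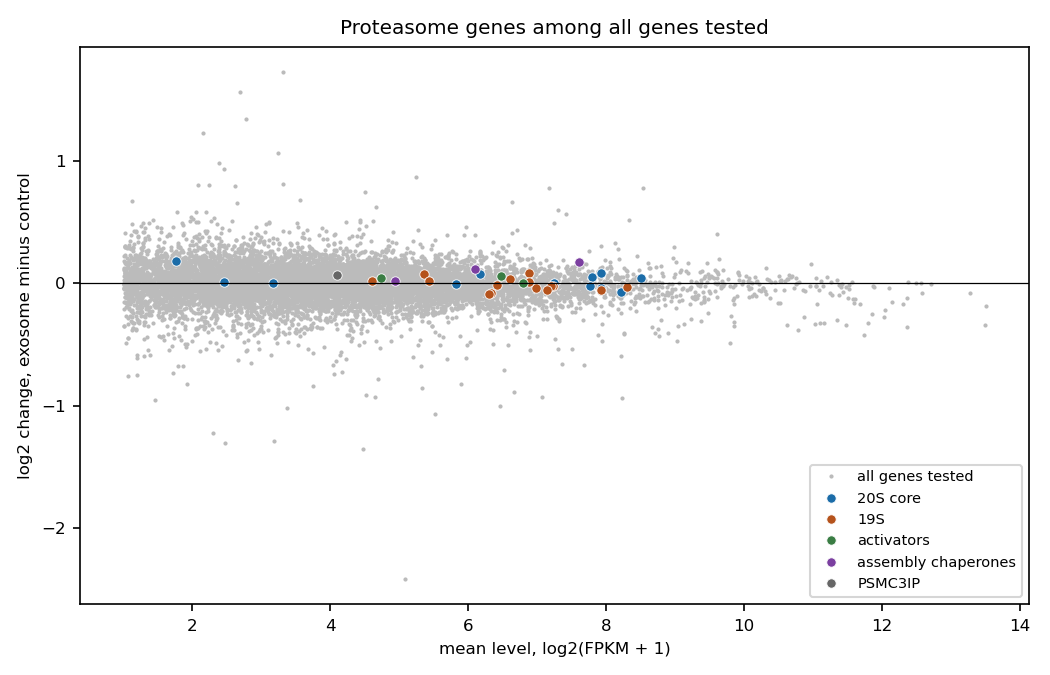
Log2 change (y axis, exosome minus control) against mean level (x axis, log2(FPKM + 1)) for all 10846 genes tested in grey, with the 34 proteasome genes coloured by class. The coloured points lie between -0.083 and 0.19, in the band around 0.

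Many of the proteasome genes, but not all, differed between libraries of the same group in a shared direction. Exosome replicate 1 held the highest value of the 6 libraries in 16 of the 34 genes (47.1%), against 21.2% of all genes tested. Control replicate 3 held it in none, against 12.7%. Exosome replicate 1 was also the lowest of the 6 in 5 of the 34 genes (14.7%), against 21.8% of all genes tested. Within the exosome group, replicate 2 was the lowest in 18 of 34 genes (52.9%), against 37.7% of all genes tested. Relative to the control mean, the median of the 34 genes was 0.032, 0.014 and -0.037 on the log2 scale in control replicates 1, 2 and 3 and 0.045, -0.032 and 0.0036 in exosome replicates 1, 2 and 3. The spread within each group thus covered the difference between the groups. For the 20S core the exosome values were 0.099, -0.018 and 0.020, for the 19S cap 0.013, -0.032 and -0.024, and for the assembly chaperones 0.20, -0.099 and 0.24. Within the core, the median of PSMB4, PSMB6 and PSMB7 was -0.062, -0.032 and -0.011, lowest in exosome replicate 1.

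Without exosome replicate 2, the library most often lowest of its group among the proteasome genes, limma passed 297 of 10841 genes (2.74%) at an adjusted p of 0.05 but 0 of the 34 proteasome genes. At an unadjusted p under 0.05, PSMG4, PSMG1 and PSMB9 (ENSSSCG00000001463) were higher, 3 of 34 against 10.2% of all genes in that direction, and 0 of 34 were lower, against 11.8%. PSMG4 then had a log2 change of 0.34 (interval 0.16 to 0.53, adjusted p = 0.0733), PSMG1 0.17 (adjusted p = 0.155) and this PSMB9 gene 0.37 (adjusted p = 0.198). In each of the 3 genes exosome replicate 2 held the lowest exosome value, so leaving it out had to raise the change. These values are therefore not evidence of a rise. Other omissions made these changes smaller, among them exosome replicates 1 and 3: PSMG4 was at 0.076 and PSMG1 at 0.077 without exosome replicate 1, and this PSMB9 gene at 0.028 without exosome replicate 3. The median log2 change of the 34 genes was 0.014 without exosome replicate 2. Leaving out replicate 2 in both groups, 58 genes (0.535%) passed and again no proteasome gene, with PSMG4 and PSMB9 (ENSSSCG00000001463) higher at an unadjusted p under 0.05, 2 of 34 against 7.22% of all genes. Under quantile normalization the 1 such gene was PSMD11, against 6% of all genes tested, and it was higher.

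The 5 genes named only by the reference table behaved within the same range. PSME1, the partner of PSME2 in the activator ring, stood in the deposited table as INF-GAMMA (ENSSSCG00000002006), at 202, 192 and 185 FPKM in the control and 208, 189 and 196 FPKM after exosomes (log2 change 0.036). PSMD1, the other large 19S scaffold (ENSSSCG00000016272), was at 84.8, 91.9 and 85.0 FPKM and at 99.7, 91.5 and 91.0 FPKM (log2 change 0.11, interval -0.026 to 0.24, adjusted p = 0.485 in limma). PSMA1 (ENSSSCG00000013391), PSMD3 (ENSSSCG00000017489) and a second entry named PSMD5 (ENSSSCG00000005507) had log2 changes of 0.073, -0.0053 and 0.051. Reads of PSMD5 could have been split between its pair of entries, as for PSMB9. With these 5 the median of 39 genes was 0.017. PSME1 and PSME2 lie 3958 bases apart on chromosome 7 in RefSeq (Sscrofa11.1).

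Partners of the proteasome outside the symbol rule were read from a list of 48 symbols by role, of which 40 genes were tested. None passed an adjusted p of 0.05, and at an unadjusted p under 0.05 there were 1 higher and 3 lower, against 5.06% and 7.5% of all genes tested. Groups did not overlap for 3 partners that were higher and 5 that were lower, against 8.29% and 10.4% of all genes tested, which is near the background. The median log2 change of the 40 partners was 0.00005. Without exosome replicate 2 the polyubiquitin gene UBB was the 1 partner that passed, against 2.74% of all genes tested in that setting, which is near the background. UBB then fell by 0.26 on the log2 scale (adjusted p = 0.0299 in limma). With all libraries UBB was at 1533, 1528 and 1464 FPKM in the control and at 1266, 1548 and 1255 FPKM after exosomes (adjusted p = 0.456 in limma), with exosome replicate 2 above every control.

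Genes that control proteasome transcription were listed under 4 identifiers for 3 genes, since NFE2L1 has a pair of them. All 4 had log2 changes below 0, from -0.24 to -0.077, as did 5508 of the 10846 genes tested, and 2 of the 4 had an unadjusted p under 0.05, against 7.5% of all genes tested in that direction. NFE2L2 (NRF2), a redox-sensitive factor that also acts on proteasome genes, was at 107, 115 and 114 FPKM in the control and at 93.6, 94.9 and 95.6 FPKM after exosomes. All 3 exosome values lay under the controls, with a log2 change of -0.24, an SE of 0.047 and an interval from -0.35 to -0.13 (adjusted p = 0.189 in limma). NGLY1, the glycanase that activates NRF1, was at 44.7, 44.2 and 45.6 FPKM and at 39.6, 43.5 and 36.2 FPKM (log2 change -0.17, adjusted p = 0.375), also without overlap. NFE2L1 (NRF1), the factor that restores proteasome genes when the protease is inhibited, stood under a pair of identifiers with log2 changes of -0.14 (ENSSSCG00000023963) and -0.077 (ENSSSCG00000017525), both overlapping between the groups.

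Other partners named by the smallest p were FAF1, ERAP2, LAP3 and PAAF1. FAF1, a cofactor of the VCP segregase, was at 17.0, 16.2 and 19.4 FPKM in the control and at 14.8, 15.5 and 14.6 FPKM after exosomes (log2 change -0.21, adjusted p = 0.336 in limma). ERAP2 (ENSSSCG00000027860), a peptide-trimming enzyme of antigen presentation, was at 1.14, 1.12 and 1.51 FPKM and at 2.32, 1.36 and 2.06 FPKM, with a log2 change of 0.36 at a low level. A second ERAP2 entry (ENSSSCG00000014172) fell under the filter and was not tested. Its values were 0.83, 0.92 and 0.93 FPKM in the control and 1.63, 0.81 and 0.85 FPKM after exosomes, so only exosome replicate 1 was above the controls. LAP3, a peptidase acting on proteasome products, was at 99.5, 93.9 and 90.02 FPKM and at 107, 97.5 and 106 FPKM. PAAF1, a chaperone of 19S base assembly, was at 17.8, 18.2 and 17.9 FPKM and at 19.5, 18.6 and 20.7 FPKM, without overlap (log2 change 0.12).

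POMP, which matures the core, was the more abundant of the assembly partners, at 522, 532 and 488 FPKM in the control and 519.5, 459 and 450.3 FPKM after exosomes (log2 change -0.11, interval -0.26 to 0.039). UCHL5, a deubiquitinase bound to the cap, was at 44.6, 42.2 and 41.5 FPKM and at 42.3, 43.1 and 42.7 FPKM (log2 change -0.0019). Of the 9 genes tested for immunoproteasome control and peptide supply, 8 had log2 changes above 0 and 1 below (median 0.047). Of the 6 ubiquitin genes, 1 was above 0 and 5 below (median -0.074). Over all genes tested, 5338 of 10846 were above 0. IRF1, a factor through which interferon raises the immunoproteasome, had a log2 change of 0.012 (chosen after its value was seen). The peptide transporter genes TAP1 and TAP2 had -0.085 (interval -0.30 to 0.13) and 0.042 (interval -0.38 to 0.46). Both were low, at means of 4.89 and 1.32 FPKM, and their intervals are too wide to show equal levels.

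**Figure D4:**
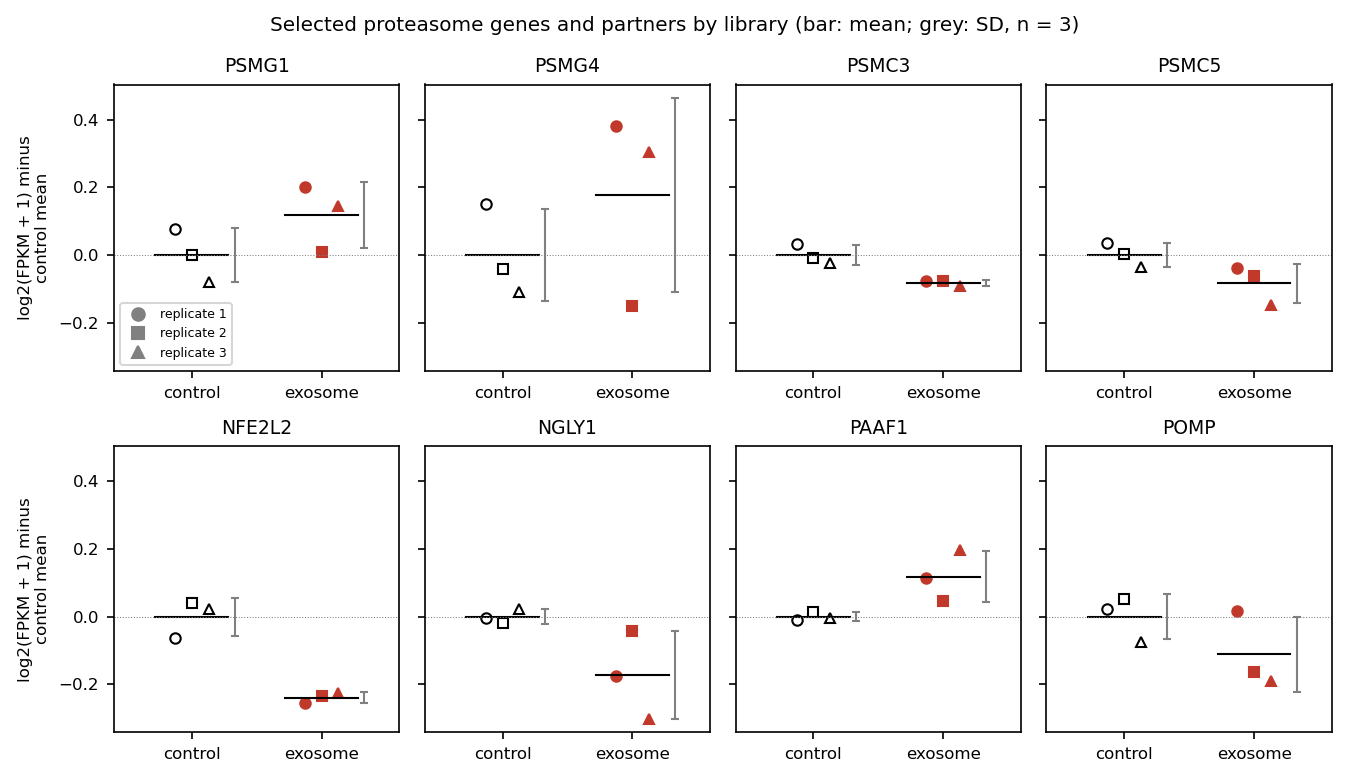
Log2(FPKM + 1) minus the control mean (y axis) in each library for 4 proteasome genes and 4 partners, with the group mean as a bar and the SD (n = 3) in grey. PSMC3, PSMC5, NFE2L2 and NGLY1 have every exosome value below the controls and PAAF1 above them, while in PSMG1 and PSMG4 exosome replicate 2 lies apart from replicates 1 and 3.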

How the data were processed

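FPKM values as the authors deposited them were used; no header names the unit, which follows from the tools listed and the range of values. The submitters' processing notes list bcl2fastq 1.8.4 for demultiplexing, TopHat and Cufflinks, and the build Sscrofa11.1; annotation release and filters: not given in the sources used here. Library preparation kept strand and selected mRNA, per the labels' protocols. The table held 10916 genes, 1 without values, and its lowest value was 0.0882, so a gene at 0 in any library is not seen. Depth is unknown: among the 200 lowest genes no ratio between control replicates 1 and 2 was shared by more than 2 genes, so whole reads could not be recovered, and no counting intervals are given.

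Columns were matched to samples by title. Tests ran on log2(FPKM + 1), without the 69 genes whose mean was under 1 FPKM. A change on this scale understates that of low genes. The test was limma 3.58.1 (R 4.3.3), its prior following the mean level, on 4 residual degrees of freedom. Its two-sided p-values were adjusted over 10846 genes by Benjamini-Hochberg, with a threshold of 0.05. Intervals are limma's 95% intervals, not adjusted for the number of genes. The scripts were tested on simulated data. The members, lists and tests were chosen with earlier results of these data known. Values per library are given for nearly all members, and for the 8 partners with the smallest p and some fixed by name. Positions come from the RefSeq table of Sscrofa11.1, matched by symbol for 34 of 34 genes. Alternatives were other pseudocounts, filters, scalings, no trend, a replicate block and each library left out. Plots were made in matplotlib 3.10.9 under Python 3.11.15.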

Additional observations from a re-analysis of the deposited data

How the results depend on the processing

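The number of proteasome genes past an adjusted p of 0.05 in limma was 0 under all alternatives run. At an unadjusted p under 0.05 there was 1 with quantile normalization (PSMD11), 3 when exosome replicate 2 was left out and 2 when replicate 2 was left out of both groups. Over all genes the count ran from 0 to 297 when libraries were left out: 297 without exosome replicate 2, 58 without replicate 2 in either group, and 1 without control replicate 3 or without the replicates numbered 3. Over the partners it ran from 0 to 1. With single libraries left out, the median log2 change ran from -0.020 to 0.027 over all 34 genes, from -0.027 to 0.055 for the 20S core, from -0.031 to -0.0030 for the 19S cap and from -0.0043 to 0.063 for the activators. The 20S core median was -0.045 without replicate 3 of both groups. The 19S median turned above 0 with quantile normalization (0.0083) and without replicate 2 in either group (0.0019). Leaving out PSMC3IP and both PSMB9 genes, a choice made after seeing the data, gave a median of 0.0072 for the remaining members.

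Of 576 results of single members under the alternatives, 529 kept their direction and 47 changed sign, all of them without passing, in 19 genes. With quantile normalization the log2 change was 0.0083 for PSMD8, 0.0057 for PSMC1, 0.0015 for PSMA7, 0.0080 for PSMD14, 0.018 for PSMC2, 0.0044 for PSMA4, -0.0025 for PSMB9 (ENSSSCG00000001468) and 0.0068 for the partner UCHL5, which was 0.0024 with median scaling. With single libraries left out, changes that crossed 0 ran from -0.069 to 0.012 for PSMD13, -0.049 to 0.0024 for PSMA7, -0.037 to 0.0047 for PSMC2, -0.033 to 0.026 for PSMA4, -0.17 to 0.17 for PSMB9 (ENSSSCG00000001468), -0.033 to 0.039 for PSMA2, -0.028 to 0.037 for PSME3 and -0.0056 to 0.028 for PSMD6. They ran from -0.023 to 0.058 for PSMD5, -0.12 to 0.17 for PSMB8, -0.087 to 0.082 for PSMG3, -0.0045 to 0.070 for PSMC6, -0.0043 to 0.15 for PSME2, -0.091 to 0.23 for PSMC3IP and -0.023 to 0.028 for UCHL5. Without replicate 1 of both groups the change was -0.027 for PSME3, -0.0014 for PSMD10, -0.031 for PSMB8, -0.032 for PSMC3IP and 0.035 for UCHL5. Without the replicates numbered 2 it was 0.019 for PSMD13, 0.012 for PSMA7, 0.014 for PSMC2, 0.032 for PSMA4 and -0.037 for PSMB8. Without those numbered 3 it was -0.082 for PSMB9 (ENSSSCG00000001468), -0.075 for PSMB9 (ENSSSCG00000001463), -0.063 for PSMA2, -0.0046 for PSMD6, -0.016 for PSMD5, -0.076 for PSMG3 and -0.026 for PSME2. The cause was not tested. With the replicate number as a block, 0 genes passed over all genes and 0 proteasome genes. Deviations of same-numbered libraries correlated at 0.16, 0.14 and -0.07, and those of differently numbered libraries at -0.27 to 0.17. These values do not settle whether the numbers pair libraries. The labels state no pairing, so none was assumed. The block lowered the SE of PSMB8 from 0.16 to 0.085 and that of PSMB9 (ENSSSCG00000001468) from 0.19 to 0.098. It raised the SE of PSMC3 from 0.043 to 0.049. The unknown depth limits the low genes PSMB8 and PSMB9.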
